A study of Rattus norvegicus with 23 samples.

Results

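The genes described here are 7 aquaporins (Aqp1, Aqp2, Aqp3, Aqp4, Aqp7, Aqp8 and Aqp11) and the vasopressin V2 receptor gene Avpr2, followed across hearts and kidneys of rats. They were taken by name, not by their values, and all 8 were found once among the 32552 genes counted. The rats were Sprague-Dawley, 13 weeks old, and tissue was collected 4 weeks after surgery. Sham rats had a mock operation, NX rats had a 5/6th partial nephrectomy, and AVF+NX rats had the same nephrectomy with an arteriovenous fistula in which the end of the jugular vein was joined to the side of the carotid artery. There is therefore no group with a fistula and intact kidneys, and the nephrectomy is shared by both operated groups. Each organ gave 4 libraries per group, except for 3 from Sham hearts.

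Aquaporins are membrane channels through which water, and for the aquaglyceroporins also glycerol, crosses cells. In the kidney, Aqp1 carries water out of the proximal tubule and thin descending limb, whereas Aqp2, Aqp3 and Aqp4 carry it through the principal cells of the collecting duct. Vasopressin binds the V2 receptor on principal cells, raises cyclic AMP, and thereby moves Aqp2 into the apical membrane and raises its transcription; Aqp3 and Aqp4 form the exit on the other side of the cell. In the heart, Aqp1 lies chiefly in the endothelium and Aqp7 is a glycerol channel.

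Kidney libraries held 9069354 to 18782085 counts and heart libraries 9605973 to 48079431, with 11889483 to 48079431 in the AVF+NX hearts and 9894716 to 11866042 in the Sham hearts. Levels are in CPM, the read count of a gene per 1000000 reads counted, after TMM scaling of library totals within an organ. The labels do not say which part of the kidney was taken and do not tie hearts to kidneys by animal, and they number the replicates as biological ones. Kidney Sham library 1 stood apart from the other 3 Sham libraries in 7 urea transporter and osmolyte genes. They summed to 844 CPM there and to 557 to 599 CPM in the others. The sum was also high in NX library 1, at 930.0 CPM, and in AVF+NX library 4, at 1021 CPM. Most of it came from Nfat5 and Slc6a6, with means of 285 and 238 CPM in Sham kidney. The urea transporter genes Slc14a2 and Slc14a1 had 24.0 and 9.98 CPM there. The list also summed to 303 to 320 CPM in Sham hearts, so it does not mark the inner medulla alone. Results that rest on Sham library 1 are given with and without it. In bulk tissue, fewer cells of a type and less RNA per cell cannot be told apart.

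The promoters of Aqp2 and Aqp3, the pair of collecting duct members whose levels moved most closely together across kidney libraries, are shown as the 250 bases before the RefSeq start (build GRCr8). Capitals mark TGACG, the first bases of the cyclic AMP response element, or its reverse complement CGTCA, and TATAAA or its reverse complement TTTATA. Aqp2 lies at chr7:132590036-132590285 on the plus strand and Aqp3 at chr5:61040684-61040933 on the minus strand.
Aqp2: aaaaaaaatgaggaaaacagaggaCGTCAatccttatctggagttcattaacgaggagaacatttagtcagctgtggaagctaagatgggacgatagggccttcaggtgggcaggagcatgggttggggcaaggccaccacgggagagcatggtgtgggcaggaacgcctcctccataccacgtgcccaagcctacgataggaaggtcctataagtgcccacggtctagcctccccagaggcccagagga
Aqp3: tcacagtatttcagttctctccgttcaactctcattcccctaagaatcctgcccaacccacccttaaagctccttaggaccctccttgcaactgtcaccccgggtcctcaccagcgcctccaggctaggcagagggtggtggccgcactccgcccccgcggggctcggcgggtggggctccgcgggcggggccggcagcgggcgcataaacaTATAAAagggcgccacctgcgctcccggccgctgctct
Promoter windows were found for 7 of the 8 members. Aqp2 was the only one of them with TGACG on either strand, a match held by 18.2% of 33469 rat promoter windows of this length. The whole palindrome TGACGTCA was in no member's window and in 1.59% of all windows. TATAAA on either strand was in the windows of Aqp1, Aqp3 and Avpr2 and in 12.9% of all windows. These are matches of letters, with no binding measured.

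In Sham rats the members divided by organ. Avpr2, Aqp2, Aqp3, Aqp4 and Aqp11 were kidney genes, Aqp1 and Aqp7 were read in both organs, and Aqp8 had no count in any Sham library. The 3 Sham hearts together held 1 count of Aqp2, 1 of Avpr2, 3 of Aqp11 and none of Aqp3 or Aqp4, against 18612, 1054, 1582, 5590 and 1978 counts in the 4 Sham kidneys. Relative to library totals, Aqp3 was at least 1355-fold and Aqp4 at least 479-fold higher in Sham kidney than 3 counts over the Sham hearts would allow. The ratio was 13533 for Aqp2 (95% counting interval 2429 to 534538), 766 for Avpr2 (137 to 30298) and 383 for Aqp11 (131 to 1861). These intervals and limits cover counting error only.

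Of the 7 members tested between Sham kidney and Sham heart, 6 were higher in kidney and Aqp7 was lower (edgeR, adjusted p below 0.05), beside 71.3% of all genes called between these organs. Aqp1 averaged 1328 ± 63.0 CPM in Sham kidney (SD, n = 4) and 567 ± 111 CPM in Sham heart (n = 3). With both organs scaled together the difference was 0.54 ± 0.18 on the log2 scale (SE, adjusted p = 0.0082), and it was 0.45 with an adjusted p of 0.054 without Heart Sham library 1. The call for Aqp7 depended on the scaling. Its mean was 68.8 ± 4.73 CPM in Sham kidney and 67.9 ± 8.58 CPM in Sham heart when each organ was scaled alone, and 54.3 ± 3.68 against 86.0 ± 11.1 CPM when all libraries were scaled together. The log2 difference was -0.66 (adjusted p = 0.0026) with joint TMM scaling, under which the median gene differed by 0.11, and -0.04 (adjusted p = 0.84) with library totals only, under which the median gene differed by 0.73.

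Per kilobase of counted exon length, Sham kidney levels ran from Aqp1 at 458 ± 21.7 CPM per kilobase (SD, n = 4) through Aqp2 at 116 ± 43.9, Aqp3 at 73.5 ± 29.7, Aqp7 at 54.3 ± 3.74, Aqp11 at 27.4 ± 7.25 and Avpr2 at 17.1 ± 6.11 to Aqp4 at 8.68 ± 4.70 CPM per kilobase. Aqp1 stood clear of Aqp2, and Aqp7 stood clear of Aqp11. The ranges of Aqp2 and Aqp3, of Aqp3 and Aqp7, of Aqp11 and Avpr2 and of Avpr2 and Aqp4 overlapped, so neighbours in those pairs did not differ beyond the spread of the 4 libraries. Within a library the order was steadier. Aqp2 was above Aqp3 in 12 of 12 kidney libraries, Aqp3 above Aqp7 in 11, Avpr2 above Aqp4 in 11 and Aqp11 above Avpr2 in 9. In Sham heart, Aqp1 stood at 196 ± 38.4 and Aqp7 at 53.6 ± 6.77 CPM per kilobase (n = 3).

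The first group in the kidney is that of the proximal tubule and thin limb. Aqp1, the main water channel of these segments (4:85551502-85569360, plus strand, as the files give it; their build is not given in the sources used here), varied little. Its levels were 1382, 1249.8, 1376 and 1304 CPM in Sham libraries 1 to 4, 950.1, 1334, 1382 and 1282 CPM in NX, and 1092, 1167, 1608 and 1216 CPM in AVF+NX. The groups overlapped, with NX library 1 the lowest and AVF+NX library 3 the highest of the 12. Aqp11, which lies in the endoplasmic reticulum of proximal tubule cells (1:162703440-162713610, minus strand), stood at 24.1, 41.7, 44.4 and 31.5 CPM in Sham, 29.1, 46.9, 35.6 and 24.1 in NX, and 29.2, 27.3, 30.4 and 26.5 in AVF+NX. All 4 AVF+NX libraries lay inside the Sham range.

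Aqp7, the aquaglyceroporin of the straight proximal tubule (5:57358327-57372239, minus strand), was the member with the clearest separation of AVF+NX from Sham. Its levels were 66.0, 64.1, 70.5 and 74.6 CPM in Sham, 40.4, 57.4, 74.1 and 54.2 CPM in NX, and 43.5, 60.8, 60.2 and 51.1 CPM in AVF+NX. All 4 AVF+NX kidneys were below all 4 Sham kidneys, and the NX kidneys spanned both groups. Aqp8 (1:193424810-193430680, plus strand), a channel better known from colon, pancreas and testis than from kidney, was at 0 in 9 of the 12 kidney libraries. It had 16 counts in NX library 1, 12 in AVF+NX library 2 and 67 in AVF+NX library 4. Before TMM scaling these were 1.69 CPM (exact binomial 95% interval 0.968 to 2.75), 1.26 (0.652 to 2.21) and 7.02 (5.44 to 8.92), whereas a count of 0 allows up to 0.160 to 0.331 CPM, depending on the kidney library. Aqp8 did not pass the count filter and was not tested.

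**Figure D1:**
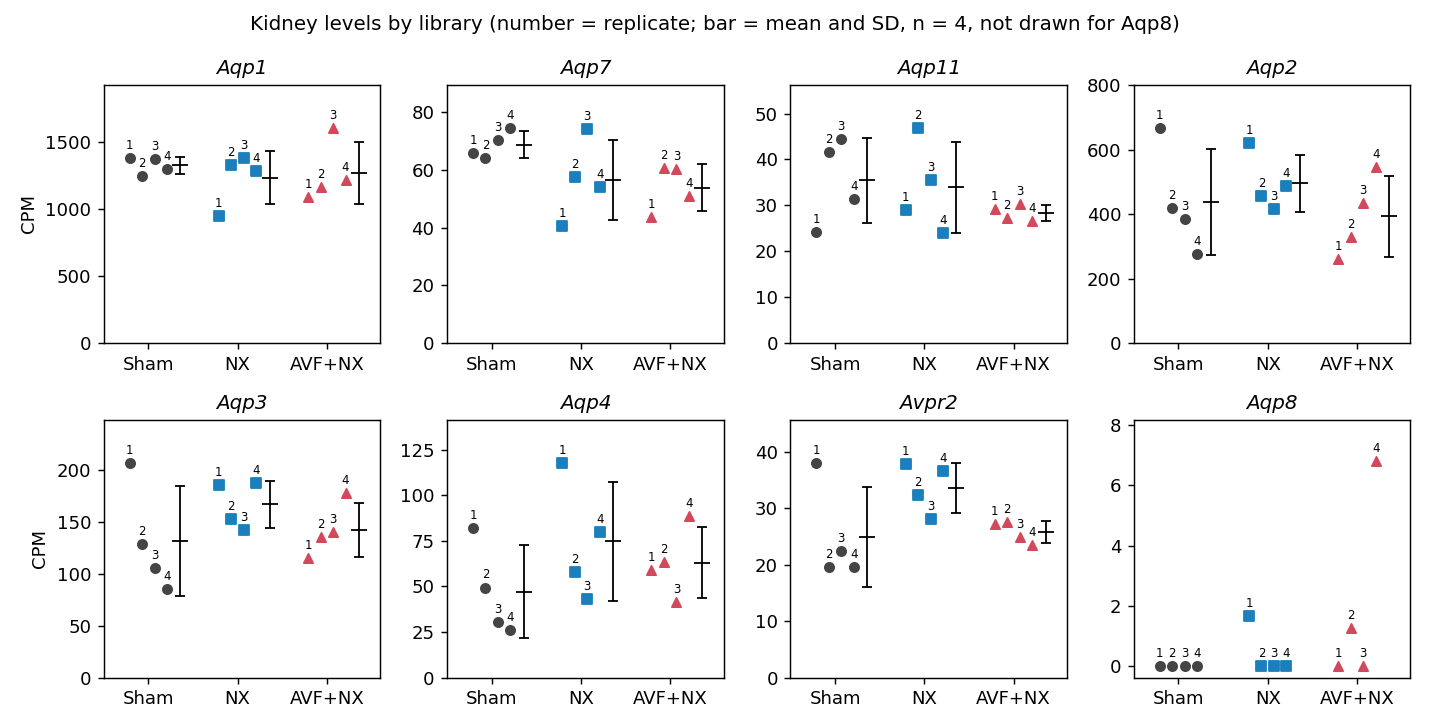
Level of each member in each kidney library (CPM, vertical axes from 0 except for a margin under Aqp8), by surgery group, with replicate numbers and the mean and SD of 4 libraries beside each group. Aqp7 is lower in all 4 AVF+NX than in all 4 Sham kidneys, Avpr2 is lower in all 4 AVF+NX than in all 4 NX kidneys, and Sham library 1 is the highest Sham library for Aqp2, Aqp3, Aqp4 and Avpr2.

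The second group is that of the collecting duct. Aqp2, the vasopressin-regulated apical channel (7:141237770-141245160, plus strand), stood at 668, 420.0, 386 and 278 CPM in Sham, 622, 458, 417 and 486 CPM in NX, and 261, 329.8, 436 and 547 CPM in AVF+NX. The 3 groups overlapped, and Sham alone spanned more than the other groups did. Aqp3, the basolateral water and glycerol channel (5:57423734-57429245, minus strand), stood at 207, 129, 106 and 85.3 CPM in Sham, 186, 153, 143 and 187 CPM in NX, and 115, 136, 140.1 and 178 CPM in AVF+NX. Aqp3 in NX lay above 3 of the 4 Sham libraries, with Sham library 1 above all others. Aqp4, the second basolateral channel, most abundant in the inner medulla (18:6765945-6782996, minus strand), stood at 82.1, 49.4, 30.4 and 26.2 CPM in Sham, 118, 57.9, 43.1 and 79.9 CPM in NX, and 58.8, 63.4, 41.3 and 88.6 CPM in AVF+NX. Its fitted differences had the largest SE of the 7 members tested, and the groups overlapped.

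Avpr2, the receptor through which vasopressin acts on these cells (X:156889410-156891210, minus strand), stood at 38.0, 19.6, 22.4 and 19.6 CPM in Sham, 37.7, 32.3, 28.0 and 36.6 CPM in NX, and 27.2, 27.5, 24.8 and 23.4 CPM in AVF+NX. Without Sham library 1, every NX and every AVF+NX kidney was above the remaining 3 Sham kidneys. All 4 AVF+NX kidneys were below all 4 NX kidneys. The files place Avpr2 on the minus strand and RefSeq places it on the plus strand of build GRCr8. Since the build and strand setting of the counting are not known here, whether strand bears on the Avpr2 counts was not tested. Group means were 24.9 ± 8.86 CPM in Sham, 33.7 ± 4.43 in NX and 25.7 ± 1.96 in AVF+NX (SD, n = 4 each).

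The comparison of NX with Sham kidneys asks what loss of renal mass was followed by. Of the 7 members tested, 0 were called by edgeR at an adjusted p below 0.05, beside 1.31% of all 14322 genes tested. In 0 of the 7 were the groups without overlap, against 9.38% of all genes tested. DESeq2 and limma voom also called 0, beside 835 and 568 of the 14322 genes tested. In edgeR 1 member had an unadjusted p below 0.05, as did 2488 of the 14322 genes. That member was Avpr2, higher in NX by 0.44 ± 0.19 on the log2 scale (SE, 95% interval 0.04 to 0.85, n = 4 per group, edgeR adjusted p = 0.25). Without Sham library 1 the difference was 0.72 and passed the threshold (edgeR adjusted p = 0.023), so this 1 library decided the call. Sham library 1 had the highest Avpr2 level in Sham, so leaving it out raises the difference. NX library 1, with a higher sum of urea transporter and osmolyte genes, stayed in that fit. The share of all genes called in that fit is not given here. The other collecting duct members had higher means in NX too, by 0.18 ± 0.27 for Aqp2, 0.35 ± 0.23 for Aqp3 and 0.68 ± 0.39 for Aqp4, none past the threshold. Without Sham library 1, also the highest Sham library for these genes, the differences became 0.46, 0.65 and 1.08, with edgeR adjusted p of 0.35, 0.088 and 0.17. Aqp1 differed by -0.10 ± 0.14, Aqp7 by -0.28 ± 0.16 and Aqp11 by -0.07 ± 0.21.

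The comparison of AVF+NX with Sham kidneys asks what both operations together were followed by. Again 0 of 7 members were called by edgeR, although it called 25.1% of all genes tested in this comparison. DESeq2 and limma voom also called 0, beside 4068 and 4922 of the 14322 genes tested. An unadjusted p below 0.05 in edgeR was found for 5386 of the 14322 genes and for 1 member. That member was Aqp7, at 53.9 ± 8.23 CPM in AVF+NX and 68.8 ± 4.73 CPM in Sham (SD, n = 4 each). Its log2 difference was -0.35 ± 0.16 (SE, 95% interval -0.69 to -0.01, edgeR adjusted p = 0.12). Aqp7 was also the only one of the 7 whose AVF+NX and Sham groups did not overlap, as was the case for 27.6% of all genes tested. A fit of these 8 libraries alone gave an edgeR adjusted p of 0.040, and the authors' deposited table lists Aqp7 at a log2 fold change of -0.36 with an adjusted p of 0.017. The share of all genes called in the fit of 8 libraries is not given here. The collecting duct genes differed by -0.15 ± 0.27 for Aqp2, 0.11 ± 0.23 for Aqp3, 0.43 ± 0.39 for Aqp4 and 0.06 ± 0.19 for Avpr2. Without Sham library 1 these values were 0.12, 0.41, 0.83 and 0.33, with edgeR adjusted p of 0.75, 0.10, 0.13 and 0.065. Sham library 1 was the highest Sham library for each of these genes, so leaving it out raises the values. AVF+NX library 4, with the highest sum of urea transporter and osmolyte genes, stayed in that fit. Aqp1 differed by -0.06 ± 0.14 and Aqp11 by -0.33 ± 0.21.

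The comparison of AVF+NX with NX kidneys asks what the fistula added. Of the 7 members, 0 were called by edgeR, DESeq2 or limma voom. These tools called 870 (6.07%), 1521 and 1106 of all 14322 genes tested. In edgeR 0 members had an unadjusted p below 0.05, beside 3295 of all genes. Avpr2 came closest, lower in AVF+NX by -0.39 ± 0.19 on the log2 scale (SE, 95% interval -0.80 to 0.02, unadjusted p = 0.060, edgeR adjusted p = 0.24). It was the only one of the 7 without overlap between these groups, against 11.8% of all genes tested. The authors' deposited table lists Avpr2 at a log2 fold change of -0.40 with an adjusted p of 0.046. The 4 collecting duct members all had lower means in AVF+NX than in NX, by -0.33 ± 0.27 for Aqp2, -0.24 ± 0.23 for Aqp3 and -0.25 ± 0.39 for Aqp4, within the spread of the libraries. The intervals still allow changes of some size: for Aqp2 they reached from -0.91 to 0.24 and for Aqp4 from -1.09 to 0.60. The 3 kidney comparisons share their groups pairwise, so their values are not independent of each other.

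**Figure D2:**
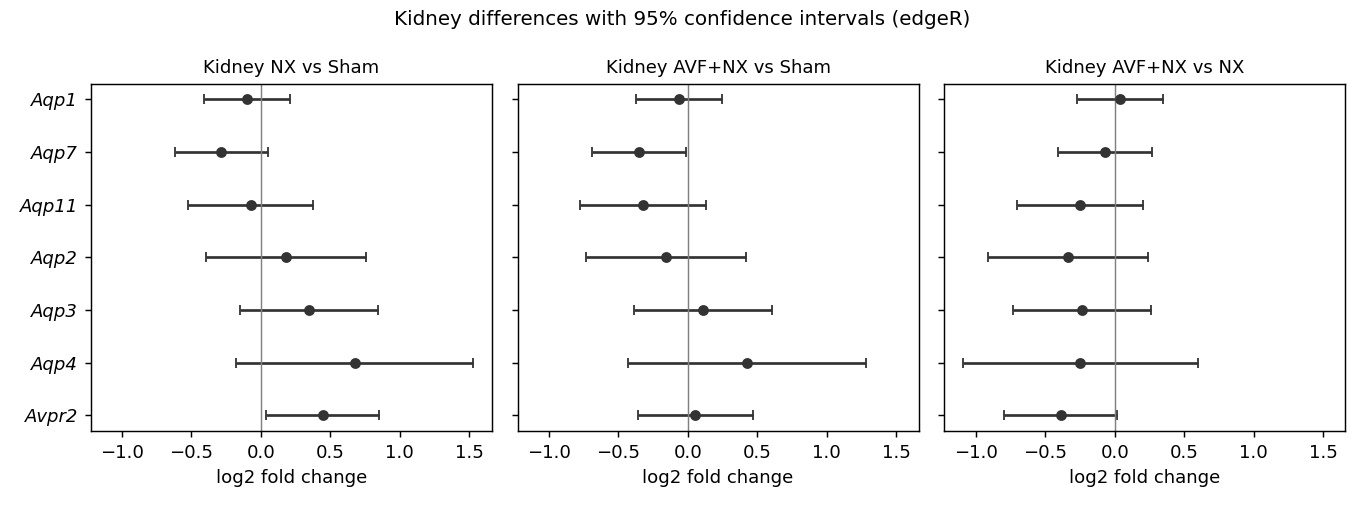
Fitted log2 fold changes (points) of the 7 members tested in kidney with 95% confidence intervals (bars), in the 3 comparisons of surgery groups. The intervals of Avpr2 in NX vs Sham (0.04 to 0.85) and of Aqp7 in AVF+NX vs Sham (-0.69 to -0.01) leave out 0 before adjustment over all genes, and neither passes after it.

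Across the 12 kidney libraries the collecting duct members varied together. Correlations here are of log2 CPM over 12 libraries, in which both genes of a pair share the library, its depth and its piece of tissue, and are given as descriptions without a test. Pearson's r was 0.88 between Aqp2 and Aqp3 (Spearman's rho 0.90), and still 0.88 without the 2 libraries farthest from the median of Aqp2. It was 0.92 for deviations from the group means. Aqp3 and Aqp4 had r = 0.87 (0.82 without the 2 farthest), and Aqp2 and Aqp4 had r = 0.67 (0.81). Avpr2 followed Aqp3 with r = 0.78 (0.64) and Aqp2 less closely with r = 0.59 (0.60). Within AVF+NX this order was not kept, since library 4 had the highest Aqp2 and the lowest Avpr2 of that group.

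**Figure D3:**
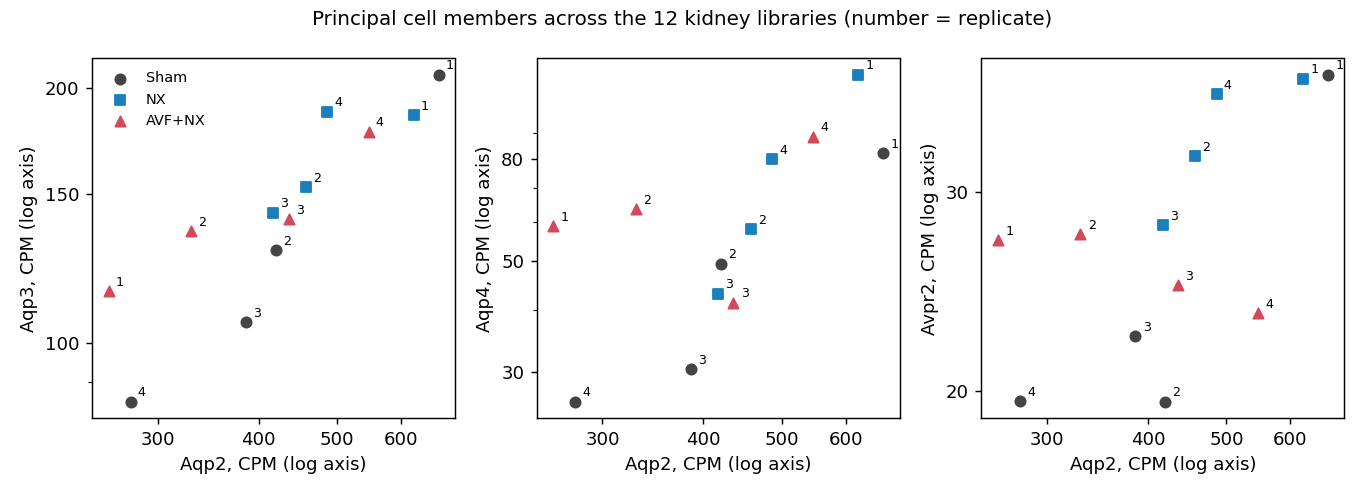
Level of Aqp3, Aqp4 and Avpr2 (CPM, log axes) against that of Aqp2 (CPM, log axis) in the 12 kidney libraries, marked by surgery group and replicate number. Aqp3 rises with Aqp2 over the whole range, whereas Avpr2 in the 4 AVF+NX libraries stays between 23.4 and 27.5 CPM while Aqp2 runs from 261 to 547 CPM.

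The ratio of Aqp3 to Aqp2 counts, a measure chosen after the values were seen and therefore given without a test, was 0.275 to 0.310 in Sham, 0.299 to 0.386 in NX and 0.322 to 0.442 in AVF+NX. Every AVF+NX kidney was above every Sham kidney in this ratio. The ratio of Avpr2 to Aqp2 counts overlapped between all 3 groups, at 0.0466 to 0.0706 in Sham, 0.0607 to 0.0752 in NX and 0.0429 to 0.104 in AVF+NX.

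Genes of the nephron segments moved with some members. The sum of 10 proximal tubule markers was 19226 to 23363 CPM in Sham, 13066 to 19631 CPM in NX and 10888 to 16755 CPM in AVF+NX, and 6 of the 10 were lower in AVF+NX than in Sham (edgeR, adjusted p below 0.05), beside 25.1% of all genes called in either direction. Among them were Lrp2, which encodes the endocytic receptor megalin (-0.81 ± 0.16, adjusted p = 0.0029), and Cubn, which encodes its partner cubilin (-0.74 ± 0.16, adjusted p = 0.0048). Aqp7 followed that sum with r = 0.84 over the 12 libraries (rho 0.85), 0.77 without the 2 farthest and 0.84 for deviations from the group means. Aqp1 followed it less closely, with r = 0.60 (0.50 without the 2 farthest). The part of the proximal tubule marker sum in the lower Aqp7 level was not tested.

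Aqp4 followed the summed level of the 7 urea transporter and osmolyte genes, most of which came from Nfat5 and Slc6a6. Its r was 0.79 (rho 0.78), 0.67 without the 2 farthest libraries and 0.88 for deviations from the group means. Aqp11 ran against the same sum with r = -0.76 (-0.85 without the 2 farthest). For Aqp2, r was 0.45 over the 12 libraries, 0.16 without the 2 farthest (AVF+NX 4 and NX 1) and 0.65 for deviations from the group means. For Aqp3 the same values were 0.59, 0.46 and 0.70, and for Avpr2 they were 0.42, 0.57 and 0.63. The sum itself was 557 to 844 CPM in Sham, 512 to 930.0 in NX and 649 to 1021 in AVF+NX, and none of its 7 genes tested was called in NX or AVF+NX against Sham. Slc14a1, a urea transporter, was nearest, at 2.15 ± 0.74 on the log2 scale in AVF+NX vs Sham (edgeR adjusted p = 0.056). The share of inner medulla in each piece was not measured, and its part in the levels of Aqp2, Aqp3, Aqp4 and Avpr2 was not tested.

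**Figure D4:**
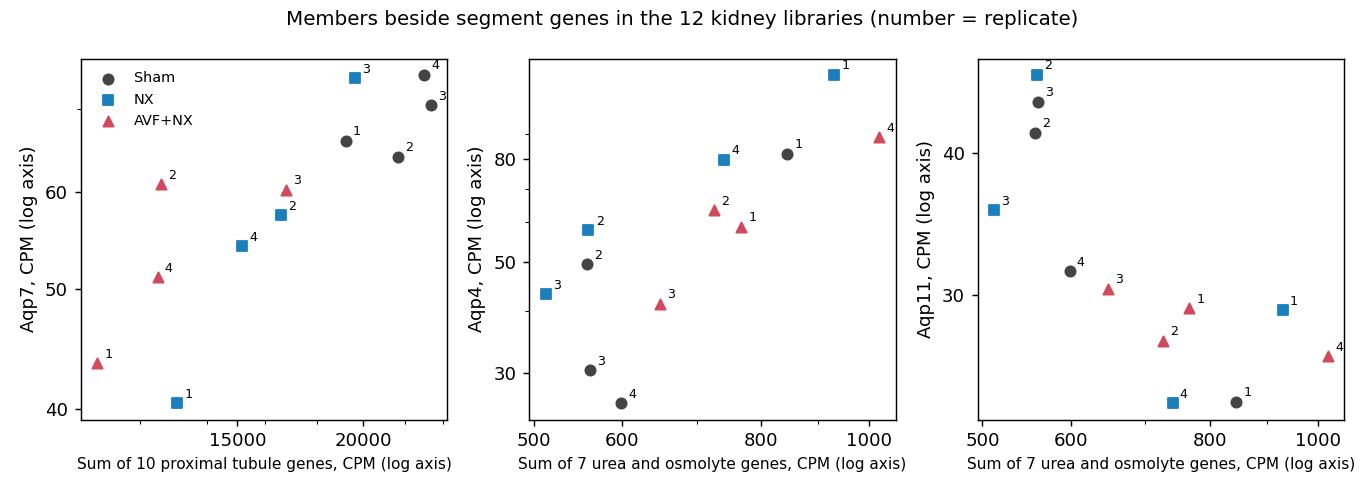
Aqp7 against the summed level of 10 proximal tubule markers, and Aqp4 and Aqp11 against the summed level of 7 urea transporter and osmolyte genes (CPM, log axes), in the 12 kidney libraries by surgery group and replicate number. Aqp7 and Aqp4 rise with the respective sum (r = 0.84 and 0.79) and Aqp11 declines with it (r = -0.76).

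The other genes of the vasopressin pathway are given by list, each count beside the share of all genes called in the same comparison. In NX vs Sham kidney, where 1.31% of all genes were called, 0 of 16 genes of cyclic AMP signalling, 0 of 14 genes of Aqp2 trafficking and turnover, 0 of 16 regulators of Aqp2 expression and 0 of 7 urea and osmolyte genes passed in edgeR. Hspa4l, an osmotic stress chaperone, was nearest among the last group at 0.41 ± 0.09 (adjusted p = 0.054). In AVF+NX vs Sham kidney, where that share was 25.1%, 1 gene of cyclic AMP signalling was higher and 1 lower of 16. They were Prkar2b, a regulatory subunit of protein kinase A (0.94 ± 0.24, edgeR adjusted p = 0.013), and Akap7, an anchor for that kinase (-0.36 ± 0.12, adjusted p = 0.049). The median log2 fold change of the 16 was 0.04, beside -0.01 over all genes tested.

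Of 14 trafficking and turnover genes, 1 was higher and 3 were lower in AVF+NX vs Sham kidney, a share near the 25.1% of all genes called. The higher one was Anxa2, which encodes annexin A2, a membrane-binding protein of many cell types (1.21 ± 0.20, edgeR adjusted p = 0.0012). The lower ones were the ubiquitin ligase gene Nedd4l (-0.37 ± 0.08, adjusted p = 0.0039), the motor protein gene Myo5b (-0.40 ± 0.13, adjusted p = 0.033) and its adaptor Rab11fip2 (-0.29 ± 0.10, adjusted p = 0.039). Of 16 regulators of Aqp2 expression, 2 were higher and 4 lower, beside the same 25.1%. P2ry2, a nucleotide receptor that opposes vasopressin in the collecting duct, stood at 10.7 CPM in AVF+NX and 3.63 CPM in Sham (1.58 ± 0.31, edgeR adjusted p = 0.0033). Lower were Nr3c2, the mineralocorticoid receptor gene (-0.47 ± 0.10, adjusted p = 0.0068), Nr1h4, the bile acid receptor gene (-0.62 ± 0.15, adjusted p = 0.011), and Tfcp2l1, a transcription factor gene of the collecting duct (-0.38 ± 0.10, adjusted p = 0.015).

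Macrophage and fibroblast markers were higher in the same comparison, in which 25.1% of all genes were called in either direction. Of 10 macrophage markers 10 were higher, and of 8 fibroblast markers 6 were higher and 0 lower (edgeR, adjusted p below 0.05). Endothelial markers went both ways, with 1 of 11 higher and 3 lower. The macrophage sum was 301 to 376 CPM in Sham, 367 to 1161 CPM in NX and 1159 to 2672 CPM in AVF+NX kidneys. The fibroblast sum was 615 to 895 CPM in Sham, 1018 to 3275 CPM in NX and 3040 to 6849 CPM in AVF+NX kidneys. Their part in the levels of Anxa2, P2ry2 and the other pathway genes, which are not particular to principal cells, was not tested.

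Of 10 principal cell markers, 0 were higher and 2 lower in AVF+NX vs Sham kidney, beside 25.1% of all genes called. They were Npnt, which encodes the matrix protein nephronectin (-0.61 ± 0.09, edgeR adjusted p = 0.00038), and Scnn1g, the gamma subunit of the epithelial sodium channel (-0.45 ± 0.13, adjusted p = 0.022). Against NX, 4 of the 10 were lower in AVF+NX, beside 6.07% of all genes called. They were Npnt (-0.54 ± 0.09, adjusted p = 0.0067), Scnn1g (-0.60 ± 0.13, adjusted p = 0.019), the ammonia channel gene Rhcg (-0.48 ± 0.12, adjusted p = 0.039) and Hsd11b2, which encodes the enzyme that inactivates glucocorticoids in these cells (-0.46 ± 0.13, adjusted p = 0.048). The summed level of the 10 markers was 969.8 to 1122 CPM in Sham, 1061 to 1336 CPM in NX and 775 to 1008 CPM in AVF+NX, without overlap between NX and AVF+NX. Their median log2 fold change in AVF+NX vs NX was -0.40. It was -0.42 for 8 intercalated cell markers and -0.44 for 9 markers of thick ascending limb and distal tubule. Of those lists, 0 of 8 and 1 of 9 were called lower. In AVF+NX vs Sham, 4 of 8 and 4 of 9 were called lower, so lower levels were not particular to principal cell markers. Aqp2, Aqp3, Aqp4 and Avpr2, which principal cells express, were not called in AVF+NX vs Sham or in AVF+NX vs NX. A difference between them and the 10 principal cell markers was not tested. Over the 12 kidney libraries r with the principal cell marker sum was 0.48 for Aqp2 (-0.003 without the 2 farthest). It was 0.23 for Aqp3 (-0.10) and 0.33 for Avpr2 (0.20), and 0.06 for Aqp4 over all 12. P2ry2 was higher in AVF+NX than in NX (1.24 ± 0.31, adjusted p = 0.034), and Hspa4l was lower (-0.35 ± 0.09, adjusted p = 0.046).

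Some of these calls were narrow. In AVF+NX vs Sham, Myo5b, Rab11fip2 and Akap7 each had an edgeR adjusted p above 0.05 in 6 of the 8 fits that left out 1 library, and Scnn1g in 3 (without Sham library 2 or 3 or AVF+NX library 1). In AVF+NX vs NX the same held for P2ry2, Rhcg and Hspa4l in 6 of 8 fits, for Hsd11b2 in 7 and for Scnn1g in 2 (without NX library 3 or AVF+NX library 1). Anxa2, Nedd4l, Prkar2b, P2ry2, Nr3c2, Nr1h4, Tfcp2l1 and Npnt in AVF+NX vs Sham, and Npnt in AVF+NX vs NX, passed in each of the 8.

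Around glycerol, the second substrate of Aqp3 and Aqp7, 2 of 8 genes were higher and 2 lower in AVF+NX vs Sham kidney, beside 25.1% of all genes called. The lower ones were Gk, which encodes glycerol kinase (-0.71 ± 0.16, edgeR adjusted p = 0.0077), and Gpd1, which encodes glycerol-3-phosphate dehydrogenase (-0.54 ± 0.16, adjusted p = 0.028, above 0.05 in 6 of the 8 fits without 1 library). The higher ones were Fabp4, at 29.8 against 4.19 CPM (2.87 ± 0.73, adjusted p = 0.015), and Plin1, at 10.7 against 0.675 CPM (4.01 ± 1.36, adjusted p = 0.0499). They are also on the adipocyte list, whose summed level was 28.7 to 60.5 CPM in Sham, 43.3 to 205 CPM in NX and 107 to 141 CPM in AVF+NX. Of the 6 genes of that list tested, 3 were higher and 0 lower, beside the same 25.1%. Adipoq, at 18.0 against 14.8 CPM, Cidec and Lipe were not called (edgeR adjusted p = 0.68, 0.20 and 0.21). Adipocytes also express Aqp7, and their part in its kidney level was not tested.

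In the heart only Aqp1 and Aqp7 passed the count filter. Over all 11 hearts the counts of the kidney members were 5 for Aqp2, 1 for Aqp3, 1 for Aqp4, 36 for Aqp11 and 10 for Avpr2, and Aqp8 had none; a count of 0 allows up to 0.0624 to 0.312 CPM, depending on the heart library. Aqp1 stood at 486, 694 and 522 CPM in Sham, 617, 392, 461 and 549 CPM in NX, and 317, 460.3, 407 and 539 CPM in AVF+NX. The groups overlapped, with Sham library 2 the highest and AVF+NX library 1 the lowest. Aqp7 stood at 68.0, 76.4 and 59.2 CPM in Sham, 44.0, 60.1, 65.6 and 44.2 CPM in NX, and 52.9, 48.8, 64.8 and 49.1 CPM in AVF+NX. Most operated hearts were below the Sham hearts, with NX libraries 2 and 3 and AVF+NX library 3 inside the Sham range.

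In NX vs Sham heart, 0 of 2 members were called by edgeR, DESeq2 or limma voom. These tools called 0, 344 and 2270 of the 12794 genes tested. In edgeR 1 member had an unadjusted p below 0.05, as did 2662 of all genes. Aqp7 differed by -0.34 ± 0.16 on the log2 scale (SE, edgeR adjusted p = 0.24) and Aqp1 by -0.17 ± 0.19 (adjusted p = 0.62). In AVF+NX vs Sham heart, edgeR and DESeq2 called 0 of 2, while they called 4357 (34.1%) and 4750 of all 12794 genes tested. In edgeR 0 members had an unadjusted p below 0.05, beside 5859 of all genes. The groups overlapped for both members, whereas they did not for 47.4% of all genes tested. Aqp1 differed by -0.40 ± 0.19 (95% interval -0.81 to 0.02, edgeR adjusted p = 0.12) and Aqp7 by -0.33 ± 0.15 (-0.66 to 0.0025, adjusted p = 0.11). Limma voom called Aqp7 (adjusted p = 0.040), beside 6203 of all 12794 genes tested. EdgeR on these 7 libraries alone also called Aqp7 (adjusted p = 0.040), and the share of all genes called in that fit is not given here. The authors' deposited table lists Aqp1 at -0.40 with an adjusted p of 0.048 and Aqp7 at -0.33 with an adjusted p of 0.032 in that comparison. In AVF+NX vs NX heart, 0 of 2 were called by edgeR, DESeq2 or limma voom, which called 43 (0.336%), 823 and 0 of all genes tested. In edgeR 0 members had an unadjusted p below 0.05, beside 2752 of all genes. Aqp1 differed by -0.23 ± 0.18 and Aqp7 by 0.01 ± 0.14. The groups overlapped for both genes there too, against 10.1% of all genes without overlap.

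Depth moved with Aqp1 in the heart. Over the 11 hearts r was -0.73 between log2 total count and log2 CPM of Aqp1 (rho -0.88), and -0.94 without the 2 farthest libraries. For deviations from the group means it was -0.59. For Aqp7, r with log2 total count was 0.03 over the 11 hearts and 0.54 for deviations from the group means. With log2 total count in the fit, the AVF+NX vs Sham difference of Aqp1 was -0.04 (edgeR adjusted p = 0.94) in place of -0.40, and that of Aqp7 was -0.61 (adjusted p = 0.17). Aqp1 also followed an index of small RNA genes in these libraries, with r = 0.64. With that index in the fit, the Aqp1 difference was -0.08 (edgeR adjusted p = 0.90). The index was 0.79 to 0.84 in Sham hearts and -0.89 to -0.28 in AVF+NX hearts, so index and surgery cannot be told apart. For Aqp7 and that index, r was -0.03 over the 11 hearts and -0.75 for deviations from the group means. Aqp1 also ran against the summed level of 8 fibroblast markers, with r = -0.78 over the 11 hearts, -0.51 without the 2 farthest and -0.70 for deviations from the group means. That sum was 1535 to 2021 CPM in Sham and 2399 to 3741 CPM in AVF+NX hearts, where 5 of the 8 were called higher and 0 lower, and its part in the Aqp1 level was not tested. AVF+NX library 4, whose depth (11889483 counts) was near that of the Sham hearts, had 539 CPM of Aqp1, inside the Sham range of 486 to 694 CPM. The deepest Sham heart had 11866042 counts, so all 4 AVF+NX hearts were deeper than every Sham heart, library 4 by little. Depth and surgery therefore cannot be told apart. Of 11 markers of endothelium, in which cardiac Aqp1 chiefly lies, 4 were higher and 0 lower in AVF+NX vs Sham heart, near the 34.1% of all genes called. Among the 4 were Emcn, which encodes endomucin, at 0.92 ± 0.12 (adjusted p = 0.0011) and Cdh5, which encodes VE-cadherin, at 0.55 ± 0.11 (adjusted p = 0.0039). Only Tie1 (-0.30, edgeR adjusted p = 0.067) and Egfl7 (-0.22, edgeR adjusted p = 0.20) had values below 0, without passing. The remaining markers were above 0 without passing. Neither Emcn nor Cdh5 passed with log2 total count in the fit (adjusted p = 0.076 and 0.14). The summed level of the 11 endothelial markers was 1141 to 1307 CPM in Sham hearts and 1475 to 1726 CPM in AVF+NX hearts.

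**Figure D5:**
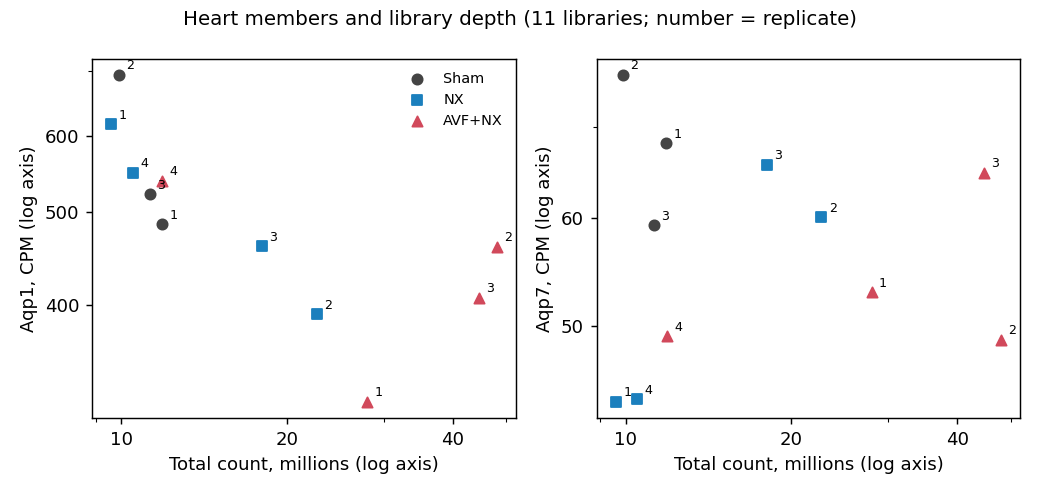
Level of Aqp1 and Aqp7 (CPM, log axes) in the 11 heart libraries against the total count of the library (log axis), by surgery group and replicate number. Over all 11 hearts Aqp1 declines with depth (r = -0.73), whereas r for Aqp7 is 0.03 over all and 0.54 for deviations from the group means.

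Whether the hearts and kidneys responded differently could be tested for Aqp1 and Aqp7 alone. In the test of the heart effect minus the kidney effect, edgeR, DESeq2 and limma voom called 0 of these 2 in each comparison. Of 12238 genes they called 22 (0.18%), 442 and 1708 for NX vs Sham. For AVF+NX vs Sham they called 3983 (32.5%), 4520 and 5436, and for AVF+NX vs NX 155 (1.27%), 607 and 71. In edgeR 0 of the 2 had an unadjusted p below 0.05 in each, beside 2326, 5495 and 2359 genes. For AVF+NX vs Sham the difference was -0.25 ± 0.24 for Aqp1 (95% interval -0.74 to 0.24) and 0.11 ± 0.25 for Aqp7 (-0.40 to 0.63). The Aqp7 means of AVF+NX and Sham were 53.9 and 67.9 CPM in heart and 53.9 and 68.8 CPM in kidney, each on its own organ's scale.

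Among the relatives of the members, Aqp6, the aquaporin of intercalated cell vesicles, was read in kidney at 111 ± 12.7 CPM in Sham, 134 ± 42.2 in NX and 117 ± 16.5 in AVF+NX (SD, n = 4 each). Avpr1a, the V1a vasopressin receptor gene, stood at 8.85 ± 2.62, 12.4 ± 2.44 and 12.5 ± 3.09 CPM, and the oxytocin receptor gene Oxtr at 1.31 ± 0.305, 0.872 ± 0.933 and 1.18 ± 0.666 CPM. None of these 3 genes was called in a kidney comparison. In Sham heart Aqp6 averaged 1.00 ± 0.70 CPM and Avpr1a 0.858 ± 0.205 CPM (n = 3), and Oxtr had no count.

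The genes whose log2 CPM was most like that of a member over the 12 kidney libraries, with a mean of at least 1 CPM, included Raver2 (r = 0.93) and Kcnj1 (0.88) for Aqp2. For Aqp3 they included Ybx1 (0.92) and Nipsnap2 (0.90). For Aqp4 they were Bok (0.94), Lrp5 (0.93) and Hipk1 (0.93), and for Avpr2 Ninl (0.90), Sostdc1 (0.89) and Pip5k1a (0.88). For Aqp1 they were Slco4c1 (0.94), Ribc1 (0.90) and Plcxd2 (0.89), for Aqp7 Gemin6 (0.96), Nit1 (0.94) and Nr1h3 (0.94), and for Aqp11 they included Gpalpp1 (0.94) and Kcnma1 (0.88). Over the 11 hearts they included Smarcd2 and Hexim2 for Aqp1 (0.94 each), and for Aqp7 they were Cyhr1, Samd11 and Lipa (0.92, 0.91 and 0.88). Each is the highest of many correlations over few libraries.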

How the data were processed

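RNA was poly(A)-selected and sequenced from strand-specific libraries, per the labels' protocols. Per the submitters' processing notes, which give no roles, the tools were Subread 1.5.2, STAR 2.5.2b, Trimmomatic 0.36 and featureCounts. The build, annotation and strand setting were not given in the sources used here. Whole-number read counts per gene were deposited by the authors; all levels and tests were computed from them. Log2 fold changes and p-values of 6 comparisons, likewise deposited by the authors, are used only where their table is named. The 46 columns of values per library in those deposited tables were not used. Symbols came from those tables (15123 of 32552 identifiers). No other gene overlaps a member's span, so reads of an overlapping gene do not bear on them.

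For each organ, 1 model of the 3 surgery groups was built in R 4.3.3 (edgeR 4.0.16) with TMM scaling, filterByExpr and robust quasi-likelihood F tests. This left 12794 genes in heart and 14322 in kidney. Calls are Benjamini-Hochberg adjusted p-values below 0.05 over all genes tested. The organ difference came from 1 fit of all 23 libraries. The code was tested on simulated data. DESeq2 1.42.0 and limma voom (limma 3.58.1) with quality weights, other scalings, no count filter, covariates, 2-group fits, a replicate term and fits without 1 library were run as alternatives; the fit with library totals only was added after seeing the data. CPM uses the TMM-scaled total, correlations use log2 CPM with a prior count of 2, and a count of 0 is read as allowing 3. Library totals ran from 9069354 to 48079431 and edgeR's biological coefficient of variation came to 0.156 (heart) and 0.176 (kidney). Replicates differed by more than sampling noise (chi-square per degree of freedom at least 6.49).

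The members and lists were chosen with earlier results of these data known. All members are named throughout, of other lists up to 4 called genes with the smallest p, or the nearest where none was called, and the 3 most similar genes per member, of which some are not reported here. Promoters are from RefSeq (GRCr8). P-values set the group differences against the spread between these libraries and do not measure that spread.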

Additional observations from a re-analysis of the deposited data

Results flagged for a closer look

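In groups of 4 libraries, a value was flagged when its gap to the nearest other library took up an unusually large share of the group's range. This test was run on 41 combinations of gene and group, and chance flags about 1 in 20 of them. Avpr2 stood at 38.0 CPM in kidney Sham library 1, against 19.6 to 22.4 CPM in the other 3. The same library was the highest Sham library for Aqp2, Aqp3 and Aqp4, and the Avpr2 call in NX vs Sham appears only without it. Aqp8 stood at 1.65 CPM in kidney NX library 1 and at 0 in the other 3. With 0 in the others the gap is the whole range at any level, so this flag was fixed in advance and the chance rate does not apply to it. Oxtr stood at 2.27 CPM in kidney NX library 1, against 0.323 to 0.452 CPM in the others, and at 2.17 CPM in kidney AVF+NX library 2, against 0.807 to 0.917 CPM. NX library 1 and AVF+NX library 2 are 2 of the 3 libraries with counts of Aqp8.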

How the results depend on the processing

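Of the 7 kidney and 2 heart members tested between surgery groups, 0 were called with TMM scaling in edgeR. The count became 1 in heart AVF+NX vs Sham with limma voom and in the 2-group fit, both through Aqp7, and 1 in kidney AVF+NX vs Sham in the 2-group fit, also through Aqp7. Limma voom called 6203 of all 12794 genes in that heart comparison. The shares of all genes called in the 2-group fits are not given here. It ran from 0 to 1 over the fits without 1 library in kidney NX vs Sham and from 6 to 7 for Sham kidney vs heart. In kidney the replicate numbers gave a hint of pairing that the labels do not state: same-numbered libraries correlated at -0.075 to 0.382 (mean 0.12, other pairs -0.04), 7 of 12 over 0.1, and matched best with their own number in 13 of 24 cases, where chance gives 6. Since not every pair was over 0.1, the numbers were not taken to pair the samples. In heart the values were -0.116 to 0.124 and 2 of 20 cases, where chance gives 5.5. The fit with the replicate block called 1 kidney member in AVF+NX vs Sham (Aqp7, -0.37, edgeR adjusted p = 0.034).

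Directions turned only for differences that were not called. With library totals only, a scaling chosen after seeing the data, Aqp7 was -0.01 in heart AVF+NX vs NX, Aqp1 was 0.02 in kidney AVF+NX vs Sham, and the organ difference of Aqp7 was -0.11 for NX vs Sham and -0.08 for AVF+NX vs Sham; that of Aqp7 between Sham organs was -0.04 and not called. With limma voom, Aqp7 was -0.09 in heart AVF+NX vs NX, Aqp11 was 0.07 in kidney NX vs Sham, Aqp1 was -0.01 in kidney AVF+NX vs NX, and the organ difference of Aqp7 was -0.06 for AVF+NX vs NX. In heart AVF+NX vs NX, Aqp1 was 0.05 and Aqp7 -0.18 with log2 total count, and Aqp7 -0.15 with the small RNA index. With that index, Aqp1 was -0.05 and Aqp7 0.05 in kidney AVF+NX vs NX. The cause was not tested.

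Without 1 library at a time, signs turned within these ranges. In heart, Aqp7 ran from -0.09 to 0.12 in AVF+NX vs NX and Aqp1 from -0.28 to 0.02 in NX vs Sham. In kidney AVF+NX vs NX, Aqp1 ran from -0.08 to 0.10, Aqp4 from -0.46 to 0.05 and Aqp7 from -0.20 to 0.09. In kidney AVF+NX vs Sham, Aqp1 ran from -0.19 to 0.0027, Aqp2 from -0.36 to 0.12, Aqp3 from -0.05 to 0.41 and Avpr2 from -0.05 to 0.33. In kidney NX vs Sham, Aqp1 ran from -0.16 to 0.01 and Aqp11 from -0.27 to 0.07. The organ difference of Aqp7 ran from -0.06 to 0.24 for AVF+NX vs NX, from -0.0016 to 0.21 for AVF+NX vs Sham and from -0.12 to 0.17 for NX vs Sham, and that of Aqp1 from -0.13 to 0.15 for NX vs Sham. Depth limits Aqp8 in the kidney libraries without a count of it. It also limits the kidney members in heart, which were near the level that a count of 0 allows. In the kidney libraries with counts of Aqp8, its exact binomial intervals lay above that level.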
